A study of Mus musculus with 8 samples.

Results

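The 34 genes described here are markers of oligodendrocytes and components of the myelin sheath, taken by symbol from a fixed list, and all 34 were found among the 56748 genes of the deposited count table. Oligodendrocytes wrap axons of the central nervous system in myelin, a stack of lipid-rich membrane held together by a few abundant proteins. The precursor cell first becomes a newly formed oligodendrocyte and then a myelinating one, under transcription factors such as Sox10 and Myrf. In brains with amyloid plaques, both loss of myelin and an altered oligodendrocyte state have been described, and the question the comparison addresses is whether transcripts of this lineage differ between the genotypes.

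RNA came from forebrain of TgCRND8 mice (Tg), a transgenic line that overexpresses the amyloid precursor protein, and from their non-transgenic littermates (NTg). Both were at 18 months of age, with no further treatment named in the labels. There were 4 libraries of each genotype, made from polyadenylated RNA of frozen and pulverised forebrain, and the labels do not say outright that each is a separate animal, so the p-values may measure technical spread only. Library totals ran from 57129090 to 65242741 counts. App, the mouse gene of this protein and the check of the labels, stood at 1390 to 1623 CPM (each count divided by its TMM-scaled library size) in NTg. In Tg it stood at 2532 to 2980 CPM, so the libraries divided as labelled. Counts on this gene do not tell transcripts of the transgene from those of the mouse gene. Tg replicate 1 lay apart from the other Tg libraries in microglial and red blood cell genes, among others. In it 13 microglial markers summed to 681 CPM, against 1104 to 1184 CPM in Tg replicates 2 to 4 and 490 to 648 CPM in NTg. Markers of cortex summed there to 303 CPM, the lowest of the 8 libraries, against 448 to 494 CPM in Tg replicates 2 to 4. The astrocyte gene Gfap was at 607 CPM there, against 1533 to 2057 CPM. Markers of neurons summed to 7610 to 7986 CPM in NTg and to 7011 to 7771 CPM in Tg.

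The 34 genes were all well measured, with 334 to 263286 counts for any gene in any library, and all 34 passed the filter on low counts. Together they took 0.836% to 1.07% of all counts in NTg and 0.751% to 0.910% in Tg. Mbp, which encodes myelin basic protein, the protein that zips the inner faces of the myelin membrane together, gave 42.7% ± 1.44 of these counts in NTg and 41.3% ± 2.25 in Tg (SD, n = 4). Markers of Schwann cells, which make myelin in peripheral nerve, summed to 79.8 to 87.9 CPM in NTg and to 70.7 to 88.6 CPM in Tg, mostly from Drp2 at 56.4 to 66.5 CPM, and Pmp2 was too low to be tested.

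RefSeq promoters (build GRCm38.p6) could be matched to 25 of the 34 genes, with 36 start sites among them. Each was searched over the 250 bases before the start, on both strands, for ACAAAG, a core bound by Sox factors, and for CTGGCAC, a core bound by Myrf. ACAAAG was in 9 of the 36 windows (25.0%), from 7 genes, and in 16.5% of all 32851 windows of the same length. CTGGCAC was in 4 of the 36 (11.1%), from 3 genes, and in 4.19% of all windows. The windows of 4 genes are shown 5′ to 3′, since their transcripts are described below: Gpr37, whose genotypes did not overlap, and Mobp, Cnp and Mag, sheath genes that held the motifs. Capitals mark either motif in either direction. The coordinates belong to GRCm38.p6 and were not joined to the counts, which were made on GRCm39.
Gpr37 (chr6:25689981-25690230, minus strand): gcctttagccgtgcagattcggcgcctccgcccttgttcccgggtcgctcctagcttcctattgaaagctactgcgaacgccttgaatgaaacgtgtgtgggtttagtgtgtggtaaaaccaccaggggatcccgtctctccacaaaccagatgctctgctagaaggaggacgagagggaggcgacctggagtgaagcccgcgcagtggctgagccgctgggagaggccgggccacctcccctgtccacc
Mobp (chr9:120149492-120149741, plus strand): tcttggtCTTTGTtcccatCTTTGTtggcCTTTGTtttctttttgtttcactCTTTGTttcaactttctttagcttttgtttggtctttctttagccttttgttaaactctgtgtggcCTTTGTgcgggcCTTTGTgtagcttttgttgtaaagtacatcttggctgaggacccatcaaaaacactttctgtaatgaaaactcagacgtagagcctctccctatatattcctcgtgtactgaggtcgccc
Cnp (chr11:100574689-100574938, plus strand): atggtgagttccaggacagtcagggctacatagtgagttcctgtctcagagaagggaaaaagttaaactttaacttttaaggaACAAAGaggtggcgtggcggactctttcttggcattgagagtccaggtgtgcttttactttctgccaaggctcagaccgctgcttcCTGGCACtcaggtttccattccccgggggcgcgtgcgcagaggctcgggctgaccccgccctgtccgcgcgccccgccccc
Mag (chr7:30914864-30915113, minus strand): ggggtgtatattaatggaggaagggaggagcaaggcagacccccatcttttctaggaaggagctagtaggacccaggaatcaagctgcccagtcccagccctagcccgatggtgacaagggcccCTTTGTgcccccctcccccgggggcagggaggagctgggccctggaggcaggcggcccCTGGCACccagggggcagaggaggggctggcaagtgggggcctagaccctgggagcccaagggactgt

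For Mag, 1 of 3 start sites is shown. The Mobp window held 6 copies of the Sox core and those of Cnp and Mag 1 copy each, with 1 Myrf core in Cnp and 1 in Mag. The Gpr37 window held neither. A match is a description of these letters and shows no binding.

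None of the 34 genes passed the quasi-likelihood test of edgeR between genotypes, in which 0.0139% of the 21588 genes tested were called at a Benjamini-Hochberg adjusted p under 0.05. The smallest adjusted p of the 34 was 0.219. Most of them were slightly lower in Tg: 29 had a log2 fold change (log2FC, Tg over NTg) below 0 and 5 above, and the median was -0.15 where that of all genes tested was -0.0024 (50.8% of all genes were below 0). At an unadjusted p under 0.05, 8 of the 34 were lower and 1 was higher, where 2.68% of all genes were lower and 4.68% higher by that measure. DESeq2 called 2 of them, Bcas1 and Gpr37, both lower in Tg, where it called 1.81% of all genes in either direction and 0.334% lower. Some marker lists of other cells and regions also had mostly values below 0. All tested genes were below 0 for choroid plexus (13 genes, median -0.81), red blood cells (5, -0.82) and endothelium (10, -0.27). The same held for Schwann cells (7, -0.22) and thalamus (9, -0.31). For hindbrain 9 of 10 were below 0 (median -0.24), for cortex 8 of 10 (-0.03) and for striatum 7 of 9 (-0.09). Neurons (7 of 11, median -0.02) and leptomeninges (5 of 8, -0.04) were split more evenly. Values were mostly above 0 for microglia (13 of 13), cerebellum (9 of 10) and astrocytes (8 of 11). The part of these cells and regions in the lower myelin values was not tested. In bulk tissue, fewer oligodendrocytes and less RNA per oligodendrocyte cannot be told apart.

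The mean log2 CPM of the 34 genes was 6.78, 6.55, 6.44 and 6.45 in NTg replicates 1 to 4, and 6.45, 6.34, 6.51 and 6.49 in Tg replicates 1 to 4. NTg replicate 1 stood above every other library, Tg replicate 2 below every other, and of the other 6, NTg replicate 2 lay above and NTg replicates 3 and 4 just below the 3 remaining Tg libraries. The genotype means were 6.55 ± 0.16 and 6.45 ± 0.08 (SD, n = 4), a difference of -0.11 that was smaller than the SD among the NTg libraries. Without NTg replicate 1 the difference was -0.03. Since the members were chosen with earlier results known, the mean is given without a test.

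**Figure D1:**
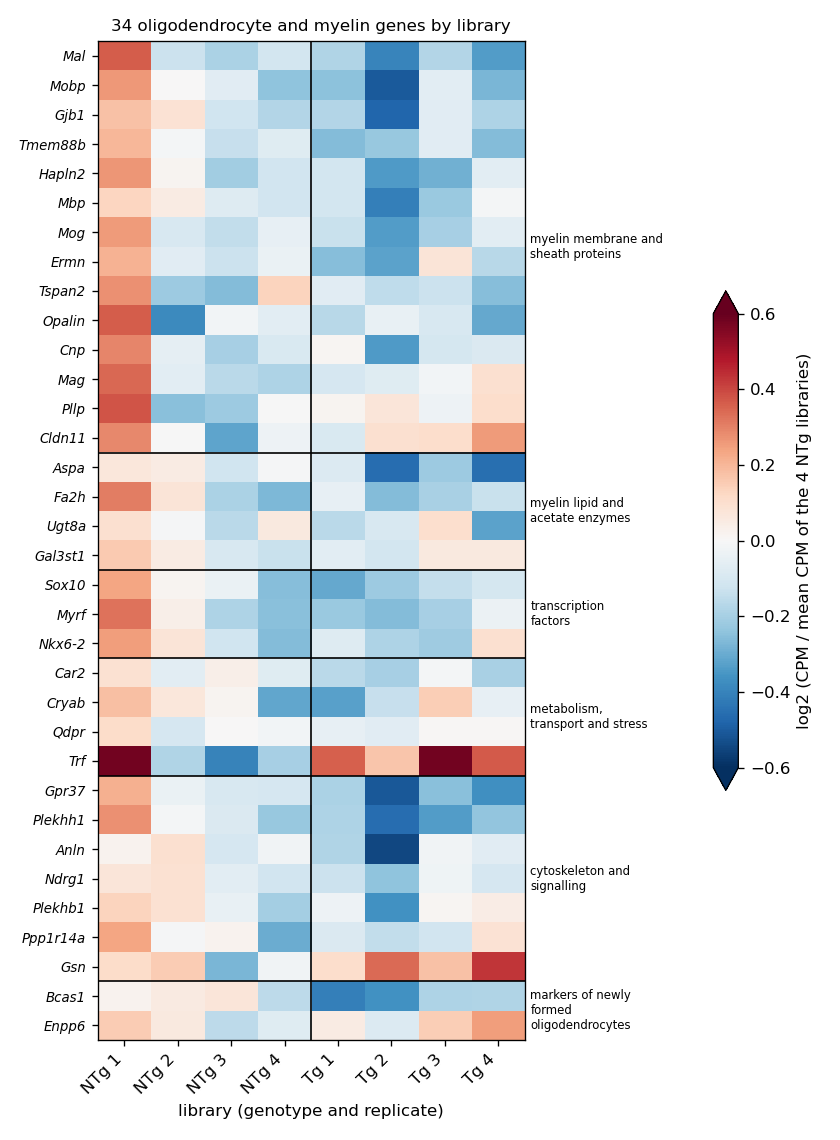
Each row is 1 of the 34 genes, grouped by role, and each column 1 library; colour gives log2 of the CPM over the mean CPM of the 4 NTg libraries, with values past 0.6 shown at the end of the scale. The NTg replicate 1 column is red in most rows and the Tg replicate 2 column blue, while Trf and Gsn are red in all 4 Tg columns.

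The same 2 libraries stood at the ends for most single genes. NTg replicate 1 held the highest value of the 8 libraries for 27 of the 34 genes, against 11.4% of all genes tested, and Tg replicate 2 the lowest for 16, against 12% of all genes. In NTg replicate 1, markers of thalamus summed to 570 CPM, the highest of the 8 libraries (387 to 529 CPM in the others). Markers of leptomeninges summed there to 437 CPM, the lowest (498 to 1057 CPM in the others), mostly from Ptgds at 382 CPM. Oligodendrocytes also express Ptgds, and their part in this sum was not tested. Microglial markers there summed to 648 CPM, the highest of the NTg libraries. NTg replicate 1 was also the highest of the 8 in markers of neurons (7986 CPM), choroid plexus (1637 CPM) and endothelium (302 CPM). In Tg replicate 2, striatal markers summed to 500 CPM, the lowest of the 8 (587 to 815 CPM in the others). Tg replicate 2 was also the highest in markers of microglia (1184 CPM) and cortex (494 CPM) and the lowest in choroid plexus (748 CPM). The part of tissue composition in the myelin values of these libraries was not tested. With NTg replicate 1 left out, 24 genes were below 0 and 10 above, the median was -0.06, and at an unadjusted p under 0.05 there were 4 lower and 2 higher (2.28% and 4.92% of all genes), with none called where 0.073% of all genes were. Among genes at an unadjusted p under 0.05 in all 8 libraries, Bcas1 was then at -0.28, Aspa at -0.27 and Gpr37 at -0.24. Plekhh1 was at -0.20, Mobp at -0.16, Tmem88b at -0.13, Mal at -0.12, Car2 at -0.11 and the higher gene Gsn at 0.31.

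Proteins of the myelin membrane and sheath made up 14 of the 34 genes, and 12 of them were below 0 and 2 above (median -0.17). Mbp was at 4348, 4112, 3768 and 3678 CPM in NTg replicates 1 to 4 and at 3684, 2993, 3413 and 3947 CPM in Tg (log2FC -0.18, SE 0.09, 95% interval -0.38 to 0.02, edgeR adjusted p = 0.728). The genotypes overlapped, since Tg replicate 4 lay above 2 of the NTg libraries. Mobp, a small basic protein of the major dense line of myelin, was at 1557, 1303, 1242 and 1099 CPM in NTg and at 1098, 918, 1245 and 1076 CPM in Tg (log2FC -0.26, SE 0.12, adjusted p = 0.673). Mal, a raft proteolipid that sorts myelin membrane, was at 290, 206, 198 and 209 CPM in NTg and at 199, 171, 199 and 179 CPM in Tg (log2FC -0.27, SE 0.12, adjusted p = 0.667). Mobp and Mal both overlapped between genotypes, and their values of -0.16 and -0.12 without NTg replicate 1 show how much rested on that library. Tmem88b, a transmembrane protein of mature oligodendrocytes, was at 103 to 130 CPM in NTg and at 94.2 to 108 CPM in Tg (log2FC -0.20, SE 0.08, adjusted p = 0.553).

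The other sheath genes were spread around the group median, and Mag, Cnp, Cldn11 and Pllp lay closest to 0. Mog, the glycoprotein of the outermost layer, was at 68.4 to 90.7 CPM in NTg and at 60.1 to 72.6 CPM in Tg (log2FC -0.18, SE 0.09, and -0.08 without NTg replicate 1). Mag, the adhesion molecule of the layer that faces the axon, was at 303, 228, 213 and 210 CPM in NTg and at 222, 227, 236 and 255 CPM in Tg (log2FC -0.02, SE 0.11). All 4 Tg libraries of Mag lay within the NTg range. Without NTg replicate 1 the Mag fold change was 0.12, and it also turned above 0 when library totals alone set the scale and without Tg replicate 1. Cnp, an enzyme that keeps cytoplasmic channels in myelin open, was at 380 to 535 CPM in NTg and at 345 to 440 CPM in Tg (log2FC -0.12, SE 0.11, and -0.01 without NTg replicate 1). Cldn11, the tight-junction claudin of myelin, was at 170, 139, 112 and 136 CPM in NTg and at 131, 149, 150 and 166 CPM in Tg (log2FC 0.10, SE 0.12, and 0.21 without NTg replicate 1), with overlapping genotypes. Pllp, a proteolipid related to Mal, was the other sheath gene above 0, at 5.80 to 8.97 CPM in NTg and at 6.75 to 7.42 CPM in Tg (log2FC 0.04, SE 0.14), and its sign turned without NTg replicate 2 and without NTg replicate 3. The remaining sheath genes, Opalin, Ermn, Tspan2, Hapln2 and the gap junction gene Gjb1, had log2 fold changes between -0.22 and -0.15, all with overlapping genotypes. Without NTg replicate 1, Opalin was at -0.0030, Tspan2 at -0.05, Ermn at -0.08, Hapln2 at -0.09 and Gjb1 at -0.15.

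**Figure D2:**
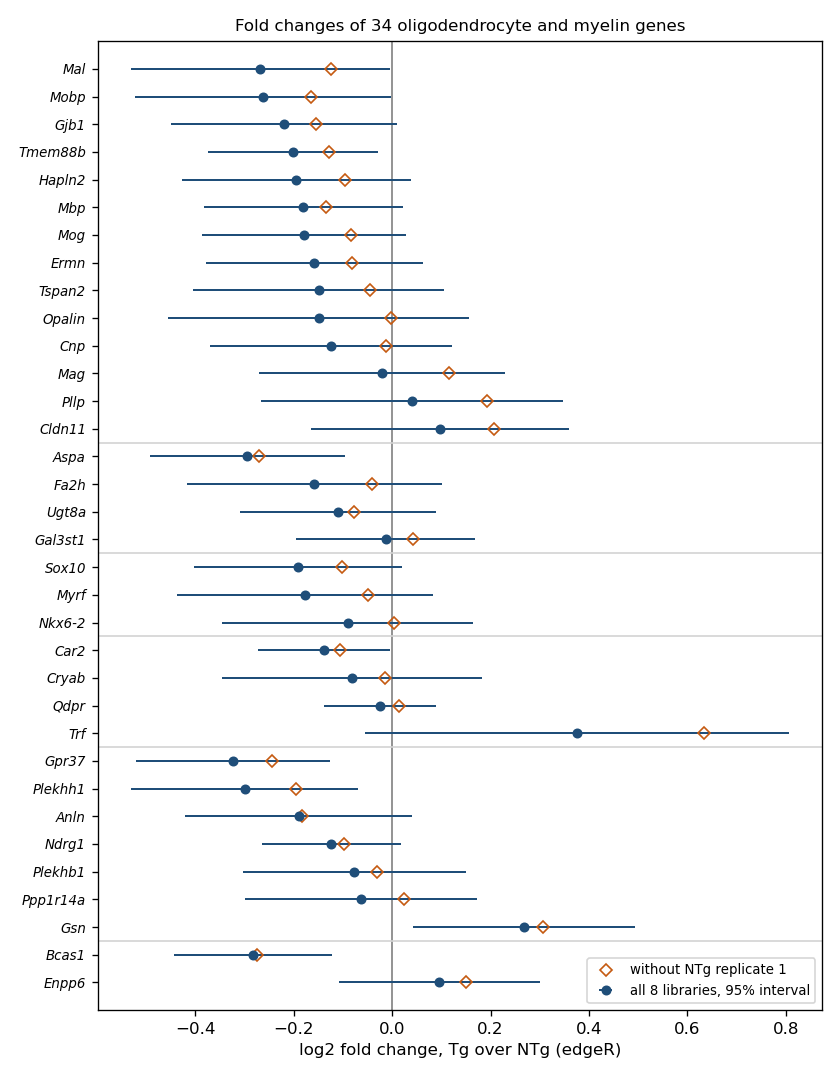
Filled points are edgeR log2 fold changes of Tg over NTg for the 34 genes, grouped by role, with 95% intervals from all 8 libraries; open diamonds are the same fold changes without NTg replicate 1. The intervals of 25 genes span 0, and most diamonds lie to the right of their points.

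The 4 enzymes of myelin lipid and acetate metabolism were all below 0 (median -0.13). Aspa, which splits N-acetylaspartate from neurons and so supplies acetate for lipid synthesis, was at 40.2, 39.6, 35.2 and 38.1 CPM in NTg and at 36.1, 27.9, 32.9 and 28.0 CPM in Tg (log2FC -0.29, SE 0.09, 95% interval -0.49 to -0.10, edgeR adjusted p = 0.340). Only Tg replicate 1 of the Tg libraries lay within the NTg range, and Aspa was the member nearest to a call without that replicate (edgeR adjusted p = 0.0569, where 1.43% of all genes were called in either direction and 0.174% lower in Tg). Ugt8a, which makes galactosylceramide, Fa2h, which hydroxylates its fatty acids, and Gal3st1, which turns it into sulfatide, had log2 fold changes of -0.11, -0.16 and -0.01, and all overlapped. Fa2h was at -0.04 without NTg replicate 1. The sign of Gal3st1 turned without any 1 of 4 libraries (NTg replicates 1 and 2, Tg replicates 1 and 2) and with library totals alone.

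The 3 transcription factors were also below 0, by less than the SD among the NTg libraries. Sox10, the factor of the whole lineage, was at 61.1, 52.4, 50.4 and 43.3 CPM in NTg and at 41.9, 44.5, 46.9 and 48.1 CPM in Tg (log2FC -0.19, SE 0.09, edgeR adjusted p = 0.723), and its log2FC was -0.10 without NTg replicate 1. Myrf, which switches on myelin genes, was at 65.5 to 97.7 CPM in NTg and at 65.1 to 76.0 CPM in Tg (log2FC -0.18, SE 0.12), and at -0.05 without NTg replicate 1. Nkx6-2, a homeobox factor of myelinating cells, was at 14.5 to 20.7 CPM in NTg and at 15.04 to 18.6 CPM in Tg (log2FC -0.09, SE 0.11), with a sign that turned without NTg replicate 1. Each of the 3 had its highest value in NTg replicate 1, as most sheath genes did.

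The 2 markers of newly formed oligodendrocytes had fold changes of opposite sign, neither past the edgeR test. Bcas1, a protein of cells that have just begun to myelinate, was at 248.9, 255, 258 and 220 CPM in NTg and at 185, 191, 216 and 216 CPM in Tg. The genotypes did not overlap, although NTg replicate 4 lay only just above Tg replicates 3 and 4. The log2 fold change was -0.28 (SE 0.07, 95% interval -0.44 to -0.12), with an adjusted p of 0.219 by edgeR and 0.0179 by DESeq2. Unlike the sheath genes, Bcas1 was not highest in NTg replicate 1, and without that library its value was -0.28 as well. Enpp6, a choline phosphodiesterase that marks cells in the act of differentiating, was at 13.9 to 17.3 CPM in NTg and at 14.7 to 18.5 CPM in Tg (log2FC 0.10, SE 0.09), with overlapping genotypes.

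Among the 7 genes of cytoskeleton and signalling, 6 were below 0 and Gsn above. Gpr37, an orphan receptor whose loss is known to make myelination begin too early, was at 115, 96.3, 92.6 and 92.1 CPM in NTg and at 86.8, 69.5, 83.1 and 76.7 CPM in Tg. All 4 Tg libraries lay below all NTg libraries, and Gpr37 and Bcas1 were the 2 of the 34 genes with no overlap in that direction (1.58% of all genes tested), with none in the other (2.62% of all genes). The log2 fold change of Gpr37 was -0.32 (SE 0.09, 95% interval -0.52 to -0.13), with an adjusted p of 0.275 by edgeR and 0.0428 by DESeq2. Plekhh1, a pleckstrin-domain protein of oligodendrocytes, was at 47.8 to 67.5 CPM in NTg and at 40.7 to 49.2 CPM in Tg (log2FC -0.30, SE 0.10, edgeR adjusted p = 0.450). Anln, which scaffolds septin filaments in myelin, Ndrg1, Plekhb1 and Ppp1r14a, an inhibitor of myosin phosphatase, had log2 fold changes of -0.19, -0.12, -0.08 and -0.06.

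**Figure D3:**
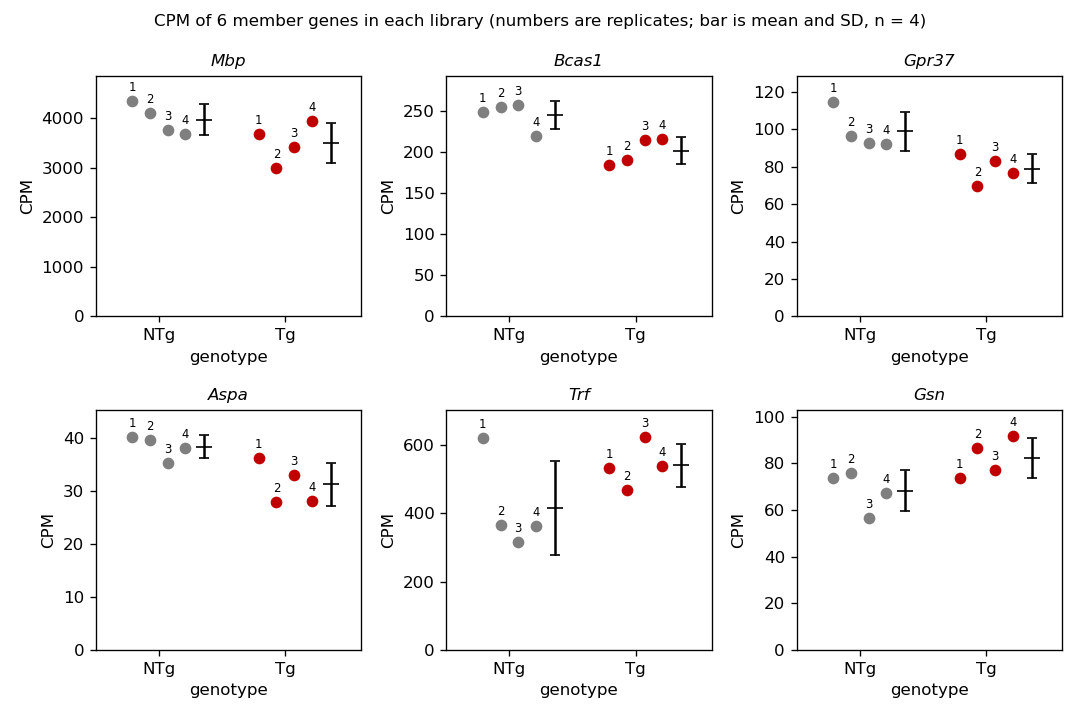
CPM of 6 genes in each of the 8 libraries, on axes that start at 0; numbers beside the points are replicates, and the bar gives the mean and SD of 4 libraries. Bcas1 and Gpr37 are the genes whose genotypes do not overlap, and NTg replicate 1 is the lone NTg library among the Tg values of Trf.

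Gsn and Trf stood higher in Tg. Gsn, which encodes the actin-severing protein gelsolin, was at 73.6, 75.8, 56.4 and 67.3 CPM in NTg and at 73.5, 86.5, 77.1 and 91.9 CPM in Tg (log2FC 0.27, SE 0.10, 95% interval 0.04 to 0.49, edgeR adjusted p = 0.534). Tg replicate 1 was the Tg library within the NTg range. Trf, the iron carrier transferrin, which oligodendrocytes make in quantity, was at 621, 367, 315 and 362 CPM in NTg and at 534, 467, 623 and 538 CPM in Tg (log2FC 0.38, SE 0.19, edgeR adjusted p = 0.743). NTg replicate 1 was level with the highest Tg library, while the other 3 NTg libraries lay below all 4 Tg libraries. Without NTg replicate 1 the Trf fold change was 0.63 (SE 0.10), at an edgeR adjusted p of 0.103. Choroid plexus epithelium also makes transferrin. Its 13 markers summed to 1221 to 1637 CPM in NTg and to 748 to 1143 CPM in Tg, all 4 Tg libraries below all NTg libraries. Most of this sum came from Ttr and Enpp2, which averaged 748 and 637 CPM in NTg and 384 and 462 CPM in Tg. Enpp2, which oligodendrocytes also express, did not overlap between genotypes (log2FC -0.46, SE 0.09, adjusted p = 0.123 by edgeR and 0.00041 by DESeq2). The part of each cell type in the Enpp2 values was not tested. The part of choroid plexus in the Trf values was not tested. Gelsolin is made by several other cell types, whose part in its value was not tested. The other genes of metabolism, transport and stress were Car2, a carbonic anhydrase (247 to 278 CPM across NTg and 227 to 258 CPM across Tg, log2 fold change -0.14, SE 0.06), the small heat shock gene Cryab (-0.08, SE 0.12) and the pterin reductase gene Qdpr (-0.02, SE 0.05), all with overlapping genotypes.

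Each gene was also set against the mean log2 CPM of the other 33 in the same library, as a description of how the genes differed among themselves. On this scale the SD among NTg libraries ran from 0.02 for Gpr37 to 0.29 for Trf, with 0.07 for Mbp and 0.09 for Mobp. Of the 34 genes, 3 lay higher in Tg with no overlap, where 4.45% of all genes did so against the mean of the 34. Trf lay 2.57, 2.03, 1.92 and 2.12 above the other genes in NTg and 2.69, 2.60, 2.86 and 2.66 above them in Tg on the log2 scale, a difference of 0.54. Gsn differed by 0.39 and Enpp6 by 0.21 in the same direction. Gpr37 alone lay lower with no overlap, at 0.06, 0.04, 0.10 and 0.08 in NTg and at -0.01, -0.23, -0.13 and -0.24 in Tg (0.19% of all genes lay lower in this way). Bcas1 overlapped on this scale, at 1.21 to 1.62 in NTg and at 1.12 to 1.30 in Tg, since NTg replicate 1 was low for it relative to the other genes.

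A further 40 genes of oligodendrocytes, outside the 34, were read in the same way, and edgeR and DESeq2 called none of them. Of these, 27 were below 0 and 13 above (median -0.09). At an unadjusted p under 0.05 there were 10 lower and 2 higher, where 2.68% of all genes were lower and 4.68% higher. Desi1, with 101 to 119 CPM in NTg and 94.5 to 102 CPM in Tg, had the smallest p among the lower ones (log2 fold change -0.19, SE 0.06, edgeR adjusted p = 0.327). The most abundant, the tubulin gene Tubb4a, was at 610 to 761 CPM in NTg and at 570 to 694 CPM in Tg (-0.09, SE 0.08). Apod, a secreted lipid carrier, was at 239 to 348 CPM in NTg and at 280 to 459 CPM in Tg (0.32, SE 0.16). Klk6, a secreted protease that is also on the disease-associated list below, stood furthest from the rest, at 17.4, 20.4, 12.0 and 20.7 CPM in NTg and at 21.8, 36.8, 32.4 and 55.1 CPM in Tg. Its genotypes did not overlap (log2 fold change 1.05, SE 0.26, edgeR adjusted p = 0.211), as for 2.62% of all genes in that direction. Without Tg replicate 1 Klk6 passed edgeR (1.23, adjusted p = 0.0285), where 1.43% of all genes were called in either direction.

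In lists of genes of the cells that precede myelination, the median fold change was slightly above 0. Of 14 genes of oligodendrocyte precursors, 8 were above 0 and 6 below (median 0.03), and edgeR and DESeq2 called none, with none at an unadjusted p under 0.05 either. Ptprz1, a receptor phosphatase and the most abundant of them, was at 245 to 293 CPM in NTg and at 262 to 293 CPM in Tg (log2FC 0.08, SE 0.07). Cspg5, a proteoglycan, averaged 207 CPM in NTg and 206 CPM in Tg, and Xylt1, which starts proteoglycan chains, 50.1 and 46.7 CPM. Pdgfra, the growth factor receptor that defines precursors, averaged 49.4 CPM over the NTg libraries and 49.3 CPM over the Tg libraries. Of 12 genes of committed precursors and early differentiation, 8 were above 0 (median 0.04), none were called by either tool and 1, the calcium channel gene Itpr2, was higher at an unadjusted p under 0.05 (24.7 ± 0.902 and 28.3 ± 3.68 CPM, SD, n = 4). The most abundant of the 12, the deacetylase gene Sirt2 and the kinase gene Fyn, had log2 fold changes of 0.07 (SE 0.06) and 0.03 (SE 0.06). Tcf7l2, a factor of differentiating oligodendrocytes that thalamic neurons also express, was at 46.1, 26.6, 42.8 and 22.5 CPM in NTg and at 25.1, 27.1, 30.2 and 12.9 CPM in Tg. It was highest in the 2 NTg libraries in which thalamic markers were highest. The mean log2 CPM of the 12 genes was at -0.02 in Tg relative to the NTg mean (SD 0.10). The difference between these lists and the 34 genes was not tested, nor was the part of other cells in their values.

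In 2 lists around the myelin sheath, edgeR and DESeq2 called 0 genes. Of 18 genes for sphingolipid and very-long-chain fatty acid synthesis, 9 were above 0 and 9 below (median 0.0017). At an unadjusted p under 0.05, 2 were lower, Sgms1 (-0.18, SE 0.05) and Elovl6 (-0.20, SE 0.08), against 2.68% of all genes. The most abundant, Tecr and Hacd3, which act in fatty acid elongation, were at 0.12 (SE 0.07) and -0.05 (SE 0.05). Of 15 genes of the axon-glia junction and node, 14 were below 0 by small amounts (median -0.07). Of the 15, 3 were lower at an unadjusted p under 0.05, against 2.68% of all genes. Their summed level did not overlap between genotypes, at 3823 to 4107 CPM in NTg and at 3711 to 3787 CPM in Tg. Cntn1, an adhesion molecule of the paranode, and Ank3, which anchors channels at the node, were the most abundant, at log2 fold changes of -0.07 (SE 0.05) and -0.10 (SE 0.05). Bcan, a matrix proteoglycan, had the smallest p (-0.15, SE 0.05, edgeR adjusted p = 0.461). The potassium channel gene Kcna2, was at 312 to 348 CPM in NTg and at 298 to 302 CPM in Tg (log2FC -0.12, SE 0.05, edgeR adjusted p = 0.555). Of 24 regulators of oligodendrocyte differentiation tested, 7 were above 0 and 17 below (median -0.04), and edgeR called none. DESeq2 called Fgfr2, a growth factor receptor, lower in Tg, where it called 0.334% of all genes lower. Fgfr2 was at 76.1 to 80.9 CPM in NTg and at 59.9 to 71.2 CPM in Tg, with no overlap (1.58% of all genes in that direction). Its log2 fold change was -0.26 (SE 0.06, adjusted p = 0.169 by edgeR and 0.00851 by DESeq2). It passed edgeR without Tg replicate 1 (adjusted p = 0.0373), where 0.174% of all genes were called lower in Tg. At an unadjusted p under 0.05, 2 of the 24 were lower and 1 higher, against 2.68% and 4.68% of all genes. The higher one was Rtn4r, the Nogo receptor, which had the largest change of the list. It was at 20.3, 14.8, 18.6 and 25.9 CPM in NTg and at 28.1, 31.9, 24.8 and 47.5 CPM in Tg, with an overlap between Tg replicate 3 and NTg replicate 4 (log2FC 0.74, SE 0.22, edgeR adjusted p = 0.324). Its ligand gene Rtn4 and the factor gene Tcf4, the most abundant of the list, were at -0.07 (SE 0.05) and 0.06 (SE 0.10).

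Genes reported for the disease-associated state of oligodendrocytes all had a higher mean in Tg. With no overlap, 3 of the 18 lay higher there, against 2.62% of all genes. Summed, the list was at 728 to 1107 CPM in NTg and at 1065 to 1646 CPM in Tg. All 18 were above 0, from 0.02 for Plin4 to 1.73, with a median of 0.55, where 50.8% of all genes were below 0. None were called by edgeR, and 10 were higher at an unadjusted p under 0.05, against 4.68% of all genes. DESeq2 called 7, where it called 1.81% of all genes in either direction. The list was chosen with earlier results of these data known. Serpina3n, a protease inhibitor, was at 44.3, 51.8, 42.7 and 33.5 CPM in NTg and at 54.7, 181, 149 and 186 CPM in Tg (log2FC 1.73, SE 0.33, adjusted p = 0.121 by edgeR and 0.00185 by DESeq2). C4b, a complement component that shares reads with its near-identical copy C4a and is uncertain for that reason, was at 209, 129, 92.1 and 123 CPM in NTg and at 201, 387, 344 and 399 CPM in Tg (log2FC 1.27, SE 0.27). B2m, which pairs with class I histocompatibility chains, was at 180, 91.6, 94.7 and 107 CPM in NTg and at 164, 193, 202 and 169 CPM in Tg. The other genes that DESeq2 called were C4a (log2FC 1.18), the receptor gene Tnfrsf1a (0.64), the tetraspanin genes Cd9 (0.65) and Cd63 (0.48) and the metalloreductase gene Steap3 (0.59). Tg replicate 1 lay close to the NTg libraries for Serpina3n and C4b. Without that replicate edgeR called 9 of the 18, against 1.43% of all genes in either direction. Astrocytes and microglia also express many of these genes: 13 of 13 microglial markers and 8 of 11 astrocyte markers were above 0, and Gfap, the filament of reactive astrocytes, was at 392 to 461 CPM in NTg and at 607 to 2057 CPM in Tg. Microglial markers summed to 490 to 648 CPM in NTg and 681 to 1184 CPM in Tg. The part of these cells in the values of this list was not tested.

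**Figure D4:**
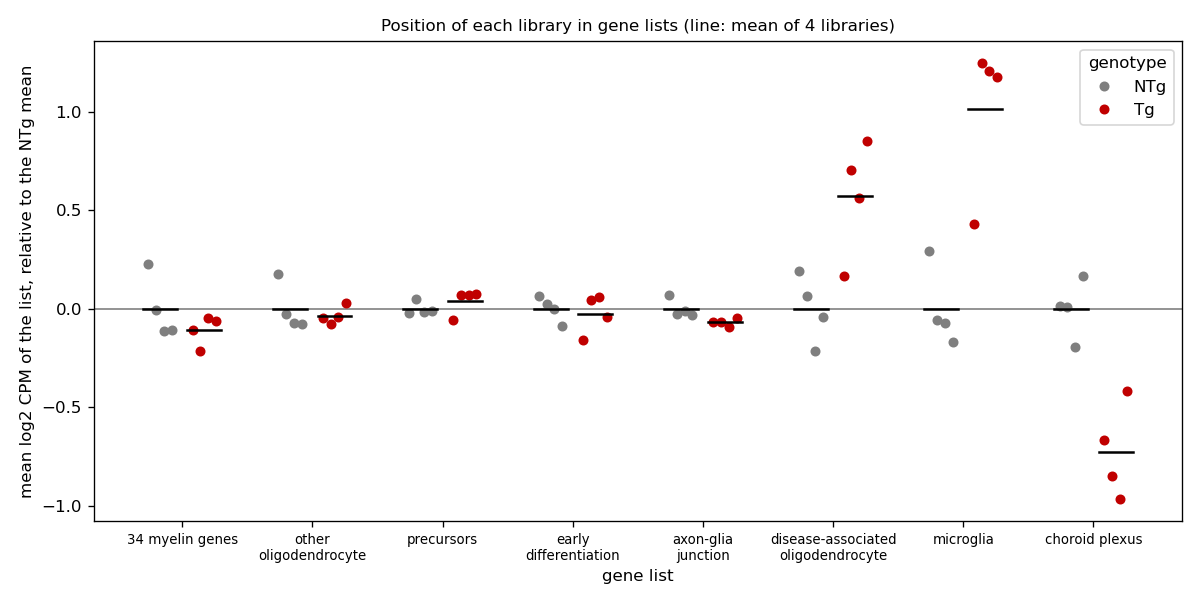
Each point is 1 library, placed by the mean log2 CPM of a gene list as a difference from the NTg mean; points are grey for NTg and red for Tg, and black lines are means of 4 libraries. The 34 genes, the other oligodendrocyte genes and the precursor lists stay within 0.23 of 0, while the disease-associated list reaches 0.85 and the microglial list 1.25 in Tg.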

How the data were processed

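The authors deposited raw read counts per Ensembl gene for 8 forebrain libraries, with no normalization. STAR, DESeq2 and the build GRCm39 are named in the submitters' processing notes. The counter, annotation and versions: not given in the sources used here. The TruSeq kit (version 2), named per the labels' protocols, keeps no strand, so overlapping antisense genes cannot be told apart. Symbols were matched by Ensembl identifier (52073 of 56748 genes, 99.6% of counts).

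From the counts, genes were kept by filterByExpr (minimum count 10, minimum total 15), scaled with TMM factors and tested with the quasi-likelihood test of edgeR 4.0.16 (R 4.3.3), adjusted over all 21588 genes at a threshold of 0.05. CPM use TMM-scaled library sizes, log2 CPM a prior count of 2, and intervals the test's own degrees of freedom. DESeq2 1.42.0 and limma 3.58.1 (voom) were alternatives. The edgeR script was tested on simulated data. No pair of libraries of a genotype agreed within sampling noise (chi-square per degree of freedom 10.9 or more).

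The 34 members, the roles and the 20 other lists were chosen with earlier results of these data known. Named genes were all members and, per other list of the lineage, called genes, the 2 most abundant and the 2 with the smallest p. Lists of other cells and regions are given by their counts and summed CPM. Pdgfra, Drp2 and Gfap were chosen after their values were seen. With at least 334 counts for every member in every library, the spread between libraries limits precision more than counting does.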

Additional observations from a re-analysis of the deposited data

Results flagged for a closer look

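In groups of 4 libraries, 5 values lay further from the other 3 than Dixon's 95% critical value for the gap over the range. Of 112 groups examined, chance alone flags about 1 in 20. NTg replicate 1 stood apart for Mal at 290 CPM and for Trf at 621 CPM. NTg replicate 3 stood apart in the sum of precursor genes, at 986 CPM where the other NTg libraries lay at 964 to 968 CPM. Tg replicate 1 stood apart in the sum of microglial markers, at 681 CPM, and of red blood cell genes, at 3003 CPM where Tg replicates 2 to 4 held 448 to 732 CPM.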

How the results depend on the processing

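The number of the 34 genes called was 2 with DESeq2 and 0 under all other alternatives (limma-voom, other scaling factors, filters and dispersion, the replicate block, a threshold of 0.1 and each library left out). The number of all genes called was 3, and 352 with DESeq2, 127 with no low-count filter, 16 at a threshold of 0.1, and 3 to 314 with a library left out, the highest without Tg replicate 1. The difference in mean log2 CPM of the 34 was -0.15 to -0.03 with a library left out and -0.14 to -0.08 otherwise. Of the 34 genes, 27 kept their sign under every alternative run, and the 7 others were within 0.09 of 0. With library totals alone Mag was at 0.0018 and Gal3st1 at 0.010. With a library left out, Mag ranged from -0.077 to 0.12, Gal3st1 from -0.053 to 0.044, Nkx6-2 from -0.17 to 0.0046, Qdpr from -0.056 to 0.013, Plekhb1 from -0.14 to 0.0065, Ppp1r14a from -0.15 to 0.024 and Pllp from -0.035 to 0.19. The disease-associated list, whose alternatives were chosen after seeing the data, had 0 calls by edgeR, 7 with DESeq2 and 9 without Tg replicate 1. The cause of these changes was not tested. With the replicate number as a block, 1 gene was called over all and 0 of the 34. Deviations of same-numbered libraries correlated across genes at 0.07, -0.03, 0.16 and -0.01 for numbers 1 to 4. Not every library correlated best with its own number, though the value for number 3 was the highest of all pairs. With so few libraries these values cannot exclude that the numbers mark pairs.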
